A study of Mus musculus with 12 samples.

Results

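The cytosolic ribosomal protein genes described here were taken by name from the count files. A member is a gene named Rpl or Rps followed by a digit on chromosomes 1 to 19, with names holding -ps and names beginning Rps6k left out. This gave 79 of the 22556 genes in the files and of the 21630 on chromosomes 1 to 19, with 46 named Rpl for the large subunit and 33 named Rps for the small subunit. Of 99 names of this form, the rule left out 6 with -ps, 8 Rps6k kinase genes on chromosomes 1 to 19, 2 Rps6k genes on X and the 4 X-linked ribosomal protein genes Rpl10, Rpl36a, Rpl39 and Rps4x. Rps19bp1 is a member by its name only, since it encodes a protein that binds RPS19 and not a ribosomal protein. The rule also passes over autosomal ribosomal protein genes with other names, among them Rpsa, Rplp0, Rplp1, Rplp2 and Fau, which are described beside the members.

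The study sequenced chromatin-associated RNA (ChrRNA-seq), which is rich in nascent transcript, to measure silencing by Xist in iXist-ChrX mouse embryonic stem cells (mESCs). All 12 libraries come from female cells with 1 genome of 129S and 1 of Cast, and in all of them, WT included, a TetOn promoter stands in place of the Xist promoter of the 129S allele. Doxycycline (Dox) at 1.0 to 1.5 µg/mL for 24 h turns this allele on, and each library without Dox pairs with a library with Dox of the same clone or replicate number. WT, with no Xist deletion, has 1 pair. XistDelA, a deletion of the A-repeat, has 3 pairs from the clones C1, 2C2 and C11. The deposit names the deletion of C11 otherwise, and whether it is the same deletion is not known. XistDelm6A/T1_11C, written 11C from here on, is a deletion of an m6A region of Xist and has 2 pairs that are replicates of 1 clone. The cells were grown on feeder fibroblasts and, by the methods of the study, separated from them before the RNA was taken. Counts on genes ran from 18893447 to 36007145 per library. In bulk libraries such as these, fewer cells with a transcript and less of it per cell cannot be told apart.

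Ribosomes join a small subunit, which reads the mRNA, to a large subunit, which forms the peptide bond, and each is built in the nucleolus from rRNA and ribosomal proteins. The genes of these proteins are among the most strongly transcribed of a growing cell, are mostly short, and often hold snoRNA genes in their introns. Their mRNAs typically begin with a C followed by pyrimidines (a terminal oligopyrimidine tract, TOP), which places their translation under the control of mTOR.

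RefSeq promoter sequences of build GRCm38.p6 were at hand for 58 of the 79 members. With 73.42% matched, a check of the set against other genes is void, and the shares that follow describe the matched members only. A run of at least 5 pyrimidines that begins with C and overlaps positions -5 to 10, counted from the annotated start as 1 with no 0, was found on the sense strand in 34 of 58 members (58.6%) and in 29.2% of 26966 other genes. CCGGAAG, the core bound by ETS factors, stood on either strand of the promoter in 37.9% of matched members and 9.06% of other genes. AAGATGGC, the core bound by YY1, stood in 10.3% and 2.87%. Windows of 30 bases around the start are shown for members on which the later results turn, with the pyrimidine run in capitals. They lie at chr10:23787190-23787219 (Rps12, minus strand), chr14:18270967-18270996 (Rpl15, minus), chr7:118116128-118116157 (Rps15a, minus), chr3:28805498-28805527 (Rpl22l1, plus), chr10:128626487-128626516 (Rps26, minus), chr7:116334171-116334200 (Rps13, minus), chr16:55966265-55966294 (Rpl24, plus) and chr17:33824543-33824572 (Rps28, minus). The first 5 hold a run and the last 3 hold none, and both kinds are among the members that pass tests later on.
Rps12: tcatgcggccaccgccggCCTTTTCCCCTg
Rpl15: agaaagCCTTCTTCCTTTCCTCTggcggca
Rps15a: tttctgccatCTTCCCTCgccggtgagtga
Rpl22l1: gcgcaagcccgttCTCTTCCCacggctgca
Rps26: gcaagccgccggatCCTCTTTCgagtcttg
Rps13: caaacgtcggtgagtggcgtcacttcctgt
Rpl24: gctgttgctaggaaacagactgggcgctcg
Rps28: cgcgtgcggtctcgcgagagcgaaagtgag

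Levels were taken in RPM, the counts of a gene scaled by the library's counts on all genes, and, to compare genes, in RPM per kilobase of the counted span, introns included. Over the 73 members with a mean of at least 50 counts, the mean level per kilobase ran from 0.637 (Rpl39l) to 109 (Rps12), with a median of 27.1. Among large-subunit genes the highest per kilobase were Rpl3, whose protein reaches the peptidyl transferase centre, at 102, Rpl12 of the stalk base at 91.1, Rpl4, which lines the exit tunnel, at 90.5, and Rpl13a at 80.4. Rpl3 also had the highest mean RPM of all members at 573. Rps3, a small-subunit protein at the mRNA entry site, reached 51.3 RPM per kilobase. Rps6, the S6 kinase substrate of the small subunit, stood at 32.003, Rps14 at 24.2 and Rps19, the gene most often mutated in Diamond-Blackfan anaemia, at 17.5. Rpl5 and Rpl11, which bind the smallest rRNA and also MDM2, stood at 37.3 and 17.7.

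The paralogues lay below the median member. Rpl3l, the form of heart and skeletal muscle, had 0.0881 RPM per kilobase and Rpl10l, of the testis, 2.98. Rpl39l, also of the testis, is the member at 0.637, and Rpl36al, an intronless copy of the X-linked Rpl36a, had 5.63. Rpl7l1, a nucleolar relative of Rpl7, had 6.99 beside 57.4 for Rpl7. Rpl22l1 stood above its partner only per kilobase, at 16.1 RPM per kilobase beside 6.70 for Rpl22. In mean RPM the order was the reverse, 30.8 beside 64.7, over counted spans of 1906 and 9648 bases. Rps27l had 6.39, Rps4l 13.8 and Rps19bp1 0.744.

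Of the members, 5 could hardly be counted. Rpl26, Rps27 and Rps27rt had 0 counts in every library, and Rpl34 and Rpl30 had 13 and 24 counts over all 12. A count of 0 allows up to 0.0833 RPM in the deepest library and 0.159 RPM in the shallowest. Another gene covers nearly all of each span on the same strand, from 97.79% for Rpl34 to 100% for Rps27rt, and the counting left out read pairs that overlap more than 1 gene. Their level was not measured by these counts. The other 74 members passed the count filter in each of the 6 comparisons, and 5 members were tested in none.

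Summed over all 79 members, the level in WT was 8490 RPM without Dox and 8165 RPM with Dox. The clones C1, 2C2 and C11 held 8193, 8878 and 8517 RPM without Dox and 6641, 7710 and 8514 RPM with Dox. The 11C replicates 1 and 2 held 7099.7 and 7227 RPM without Dox and 8165 and 4875 RPM with Dox. Without Dox, both 11C libraries lay below the other 4 libraries. With Dox, 11C replicate 2 was the lowest of all libraries and 11C replicate 1 had gained, so the pair of replicate 2 stands apart from its own replicate. Rpl and Rps genes were each lowest in 11C replicate 2 with Dox, at 3043 and 1832 RPM, beside 5143 and 3022 RPM in replicate 1 with Dox.

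**Figure D1:**
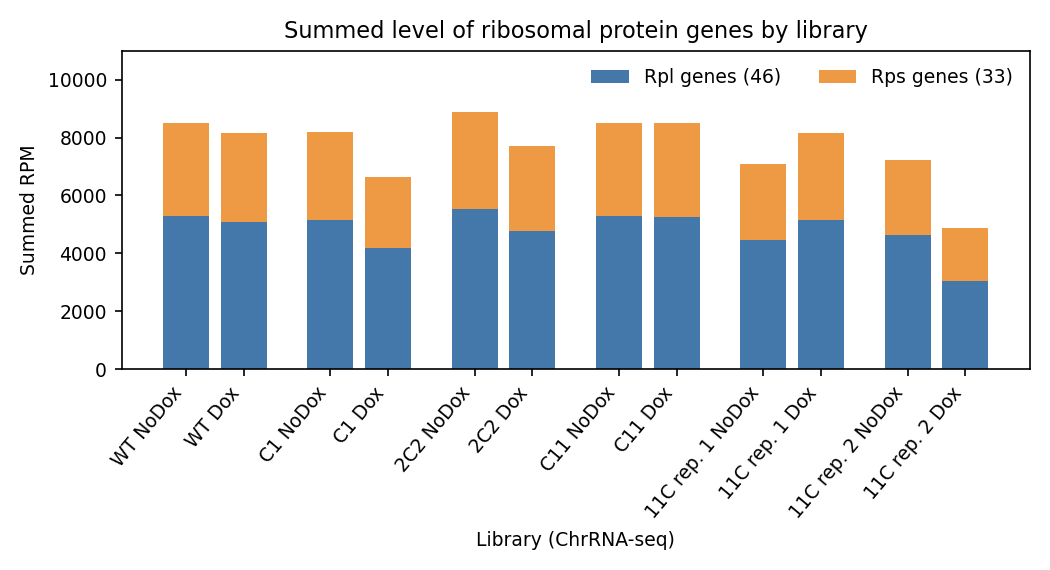
Summed level of the 46 Rpl and 33 Rps genes (vertical axis, RPM) in each of the 12 ChrRNA-seq libraries (horizontal axis), stacked by subunit. Bars with Dox lie lower than without Dox in C1, 2C2 and 11C replicate 2, slightly lower in WT and nearly level in C11, and the bar of 11C replicate 1 lies higher.

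Each pair gives the change with Dox within a clone or replicate, as log2 of RPM with Dox minus without Dox for the 73 members with a mean of at least 50 counts. The members' median was -0.32 in C1, with 73 of 73 lower, and -0.19 in 2C2, with 72 lower. It was 0.01 in C11, with 34 lower, and -0.06 in WT, with 51 lower. In 11C it was 0.16 in replicate 1, with 10 lower, and -0.57 in replicate 2, with 71 lower. The SD over the 6 pair medians, 0.259, is thus larger than most of the medians themselves. Other autosomal genes, 11738 with enough counts, had medians from -0.06 (11C replicate 2) to 0.08 (2C2). Other autosomal genes with a counted span of up to 5 kb moved in the same order as the members, with medians of -0.25 in C1, -0.10 in 2C2, -0.01 in C11, -0.05 in WT, 0.12 in 11C replicate 1 and -0.38 in 11C replicate 2. Members lower in all 6 pairs numbered 5 of 73 (6.85%), beside 8.54% of other autosomal genes and 11.5% of the 956 short ones. No member was higher in all 6 pairs. With scaling by the trimmed mean of M-values (TMM) the median of all genes moved by at most 0.08 in any pair, and no member median changed sign.

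**Figure D2:**
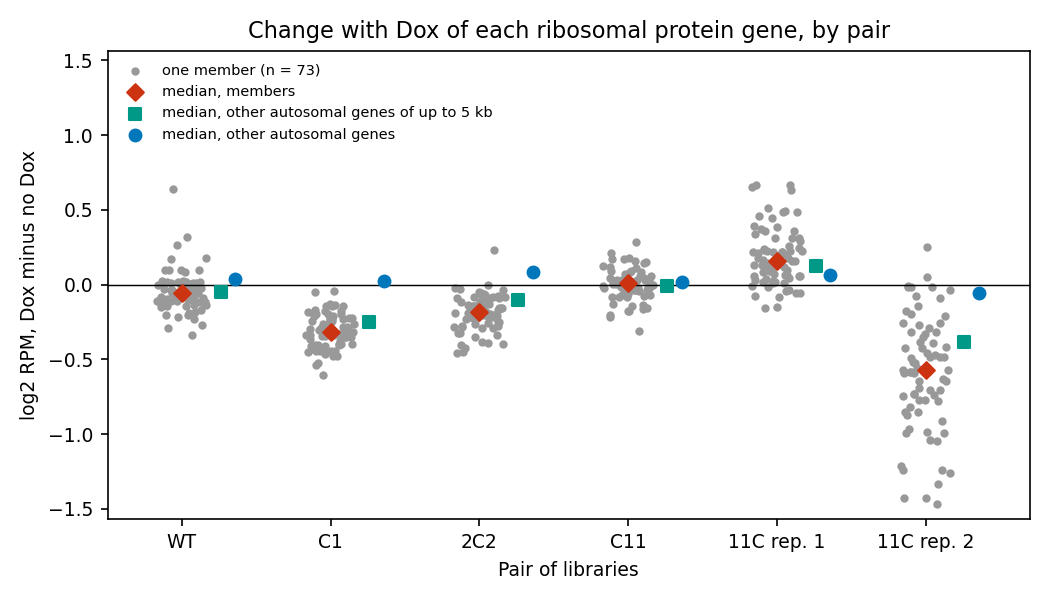
Change with Dox of each member (grey points, n = 73) in each pair of libraries (horizontal axis), as log2 RPM with Dox minus without Dox (vertical axis). Diamonds mark the member median, squares that of other autosomal genes of up to 5 kb and circles that of all other autosomal genes, and the diamonds run from 0.16 in 11C replicate 1 to -0.57 in 11C replicate 2.

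The mESC markers with enough counts, 9 of 10, had medians of -0.36 in C1, 0.15 in 11C replicate 1 and -0.45 in 11C replicate 2, each of the same sign as the members, and of -0.10 in WT, 0.00 in 2C2 and -0.15 in C11. Over the 6 pairs 3 of these 9 fell and 1 rose by edgeR, as in XistDelA alone. Their part in the members' change was not tested.

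The first test asks which members change with Dox over all 6 pairs, WT included. Xist itself rose, with a log2 fold change of 4.16 (SE 0.258, edgeR quasi-likelihood with Benjamini-Hochberg (BH) adjustment, adjusted p = 4.06e-08, 6 of 6 pairs). Of the 74 members tested, 17 fell and 0 rose at an adjusted p under 0.05, where 8.78% of all 15826 genes tested fell and 7.58% rose. The 17 comprise 8 of 43 Rpl and 9 of 31 Rps genes. Most members leaned the same way by a small amount: 72 of 74 had a fold change below 0, and the median log2 fold change was -0.18, beside 0.01 over all genes tested and -0.09 over other autosomal genes of up to 5 kb. By edgeR, 39 of 74 members had an unadjusted p under 0.05, and DESeq2 called 20.

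Among large-subunit genes, Rpl23a, which lies at the tunnel exit, stood at 113, 125, 112, 108, 127 and 112 RPM without Dox in WT, C1, 2C2, C11 and 11C replicates 1 and 2. With Dox it stood at 106, 91.7, 85.9, 104, 120.1 and 61.1 RPM in the same order. All 6 pairs were lower with Dox, by little in WT and C11 and most in 11C replicate 2, and only 11C replicate 1 with Dox lay within the range of libraries without Dox. The log2 fold change of Rpl23a was -0.34 (SE 0.0790, edgeR with BH, adjusted p = 0.00854, 6 of 6 pairs). Rpl4 went from 538, 511, 608, 517, 420.2 and 442 RPM to 500.4, 404, 487, 492, 404 and 301 RPM, lower in every pair. Its log2 fold change was -0.26 (SE 0.0614, edgeR, adjusted p = 0.00866, 6 of 6 pairs). Rpl23a and Rpl4 remained past the threshold when any 1 pair was left out.

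Among small-subunit genes, Rps12 stood at 234, 203, 251, 253, 265 and 231 RPM without Dox and at 212, 158, 187, 239, 238 and 173 RPM with Dox, in the same order of pairs. Every pair was lower, though WT, C11 and 11C replicate 1 with Dox lay within the range of libraries without Dox. Its log2 fold change of -0.28 (SE 0.0580, edgeR, adjusted p = 0.00363, 6 of 6 pairs) remained past the threshold when any 1 pair was left out. Rps28, at the mRNA exit site, went from 32.6, 35.4, 38.0, 34.8, 37.8 and 35.5 RPM to 31.3, 26.6, 32.6, 34.0, 36.7 and 25.3 RPM. The drop was small in WT, C11 and 11C replicate 1. Its log2 fold change was -0.22 (SE 0.0667, edgeR, adjusted p = 0.0295, 6 of 6 pairs), and it did not pass without C1 (edgeR, adjusted p = 0.130), 2C2 (0.0831) or 11C replicate 2 (0.0569). Rps13 went from 54.1, 45.8, 57.5, 58.8, 22.4 and 23.0 RPM to 50.8, 36.3, 46.01, 51.04, 22.9 and 18.0 RPM. In RPM it was lower in every pair other than 11C replicate 1, and on TMM-scaled counts in 6 of 6, with a log2 fold change of -0.23 (SE 0.0618, edgeR, adjusted p = 0.0170). It did not pass without C1 (edgeR, adjusted p = 0.0772) or 2C2 (0.0755). The 11C libraries of Rps13 lay far below the others in both states.

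Of the 17 members that fell, 7 moved the same way in all 6 pairs, and the smallest fold change among the 17 was that of Rpl21, -0.18 (SE 0.0592, edgeR, adjusted p = 0.0495). Members that did not pass include Rpl13a (-0.22, adjusted p = 0.0765, 5 of 6 pairs), Rps6 (-0.13, 0.146), Rpl11 (-0.28, 0.130), Rpl5 (-0.03, 0.840), Rps3 (-0.02, 0.929), Rps14 (-0.08, 0.543) and Rps19 (-0.05, 0.606). The count of 17 rests on pairs: with no replicate block, edgeR called 0 members, with 13 at an unadjusted p under 0.05 (DESeq2 was not run without pairs). It was 4 without C1, 6 without 2C2, 10 without WT, 33 without 11C replicate 1 and 9 without 11C replicate 2.

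In the XistDelA clones alone, 6 of 74 members fell with Dox and 0 rose, beside 5.6% and 5.7% of the 15745 genes tested. They comprise 5 Rps genes, among them Rps12, Rps13, Rps27a and Rps15a, and Rpl15 of the large subunit. Rps27a, which encodes ubiquitin joined to a small-subunit protein, went from 198, 149.98 and 142 RPM to 147, 118 and 135 RPM. Here C1 with Dox lay above C11 without Dox, and the log2 fold change was -0.32 (SE 0.0811, edgeR, adjusted p = 0.0215, 3 of 3 clones). Rpl15 went from 75.2, 75.1 and 74.0 RPM to 55.5, 67.3 and 66.4 RPM, with no overlap, and a log2 fold change of -0.28 (SE 0.0814, edgeR, adjusted p = 0.0361, 3 of 3 clones). Rps12 and Rps13, given above by library, both had -0.32 (edgeR, adjusted p = 0.0219 and 0.0194, 3 of 3 clones). Rps15a went from 219, 238 and 249 RPM to 189, 211 and 214 RPM, lower in each clone with no overlap, with -0.23 (SE 0.0696, edgeR, adjusted p = 0.0430, 3 of 3 clones).

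The 6 calls in XistDelA stand on few clones. The median over the 74 members was -0.19 with 73 below 0, beside 0.01 over all genes and -0.13 over short autosomal genes. With no replicate block edgeR called 0 members, with 2 at an unadjusted p under 0.05. Leaving out C1 or 2C2 also gave 0, with 4 and 5 at an unadjusted p under 0.05, and leaving out C11 gave 6. Without C11, Rpl15 (edgeR, adjusted p = 0.0665), Rps13 (0.0522) and Rps15a (0.171) were not among them. Leaving out 11C replicate 1 or 2, which share the fit and its estimate of spread, kept the member median at -0.19 and -0.20. More members passed in these fits, as did more genes over all tested. DESeq2 on all clones called 9.

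In 11C, edgeR called 0 of 74 members with Dox in either direction, beside 2.65% of all genes lower and 0.756% higher. At an unadjusted p under 0.05 there were 19 members, and DESeq2 called 2. The median over members was -0.15 with 64 of 74 below 0, but the replicates moved in opposite directions for most members. Rpl36 shows it, going from 35.4 to 48.7 RPM in replicate 1 and from 48.0 to 19.02 RPM in replicate 2. Its log2 fold change was -0.39 (SE 0.250, edgeR, adjusted p = 0.504, 1 of 2 pairs). Rpl23a was lower in both replicates, with -0.46 (SE 0.133, edgeR, adjusted p = 0.0760, 2 of 2 pairs). Rpl5 was higher in both on TMM-scaled counts, from 278 to 390.3 RPM in replicate 1 and from 261 to 259 RPM in replicate 2, with 0.25 (SE 0.111, edgeR, adjusted p = 0.289, 2 of 2 pairs). Without replicate 1 the member median was -0.49, and without replicate 2 it was 0.08, beside 0.01 and -0.02 over all genes. Without C1, which only lends its spread, 1 member was called.

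A difference between lines in the response to Dox was tested directly, as the log2 fold change in 11C minus that in XistDelA. EdgeR called 0 of 74 members, with 4 at an unadjusted p under 0.05 and 0 by DESeq2, beside 0.178% of all genes higher and 0.565% lower. The median difference was 0.02 with 34 of 74 below 0, and -0.02 over all genes. The 4 members are Rpl5 (0.47, SE 0.144, adjusted p = 0.168), Rps15a (0.29, SE 0.111, adjusted p = 0.285), Rpl32 and Rpl7l1. Without 11C replicate 1 the median difference over members was -0.29, and without replicate 2 it was 0.29, beside -0.03 and -0.04 over all genes. Which of these is nearer to the line as a whole cannot be read from 2 replicates of opposite sign.

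Between the lines without Dox, before Xist is induced, 28 of 74 members were lower in 11C than in the XistDelA clones and 3 were higher, by edgeR at an adjusted p under 0.05. Of all 15100 genes tested, 11.9% were lower and 11.2% higher. The members' median log2 fold change was -0.37, with 58 of 74 below 0, beside 0.02 over all genes and 0.10 over other autosomal genes of up to 5 kb. The 28 lower members comprise 13 Rpl and 15 Rps genes. For each of the 31 called members the 2 libraries of 11C lay outside the range of the 3 clones on TMM-scaled counts (groups apart). This is no support beyond the test, since it also held for members that did not pass, among them Rpl4, Rpl23 and Rps15. The share over all genes was not counted.

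The member with the largest change was the paralogue Rpl22l1, which stood at 37.1, 43.7 and 39.5 RPM in C1, 2C2 and C11 and at 16.4 and 15.6 RPM in 11C. WT, at 36.2 RPM, lay with the clones. The log2 fold change was -1.44 (SE 0.161, edgeR with BH, adjusted p = 0.00197, groups apart). Its partner Rpl22 stood at 63.1, 68.0 and 76.1 RPM against 64.3 and 52.7 RPM and did not pass, with -0.36 (SE 0.142, edgeR, adjusted p = 0.0929). The paralogue Rps27l stood at 25.99, 27.8 and 21.9 RPM in the clones and 14.3 and 17.04 RPM in 11C. Its log2 fold change was -0.79 (SE 0.194, edgeR, adjusted p = 0.0205, groups apart), and it did not pass without 2C2 (edgeR, adjusted p = 0.0964) or 11C replicate 1 (0.0812). Rpl22l1 passed with any 1 library left out.

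Of the small subunit, Rps13 stood at 45.8, 57.5 and 58.8 RPM in the clones and at 22.4 and 23.0 RPM in 11C, a log2 fold change of -1.37 (SE 0.171, edgeR, adjusted p = 0.00223, groups apart). WT, at 54.1 RPM, lay with the clones. Rps15a stood at 219, 238 and 249 RPM against 108 and 154 RPM, with -0.95 (SE 0.196, edgeR, adjusted p = 0.0113, groups apart). Of the large subunit, Rpl24, which takes part in a bridge between the subunits, stood at 114, 129 and 118 RPM against 59.8 and 70.2 RPM, with -0.999 (SE 0.157, edgeR, adjusted p = 0.00441, groups apart). Rpl3 stood at 661, 705 and 693 RPM against 380.2 and 448 RPM, with -0.84 (SE 0.161, edgeR, adjusted p = 0.00884, groups apart). In all of these the 11C libraries lay low by more than the clones differ among themselves, and each passed with any 1 library left out.

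Among the 3 members higher in 11C were Rpl36 and Rps26. Rpl36 stood at 20.0, 16.1 and 21.6 RPM in the clones and at 35.4 and 48.0 RPM in 11C, with a log2 fold change of 1.01 (SE 0.206, edgeR, adjusted p = 0.0107, groups apart). It did not pass without 2C2 (edgeR, adjusted p = 0.0521) or 11C replicate 2 (0.0519). Rps26, which touches the mRNA near the exit, stood at 38.2, 39.4 and 40.6 RPM against 67.0 and 53.1 RPM, with 0.49 (SE 0.135, edgeR, adjusted p = 0.0325, groups apart). This call was lost without C1 (edgeR, adjusted p = 0.0776), 2C2 (0.105), C11 (0.0673) or 11C replicate 1 (0.118). WT held 19.5 and 37.6 RPM of these genes, close to the clones. Their values in 11C differ between the replicates, but both lie above every clone.

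Of the well-known members, Rps3, Rps14 and Rpl5 were lower in 11C, and each lost its call in some fits with 1 library left out. Rps3 stood at 295, 349 and 333 RPM in the clones and 229.9 and 224 RPM in 11C, with -0.64 (SE 0.142, edgeR, adjusted p = 0.0147, groups apart). It did not pass without 2C2 (edgeR, adjusted p = 0.0737) or C11 (0.0519). Rps14 stood at 96.9, 112 and 111 RPM against 71.2 and 83.0 RPM, with -0.58 (SE 0.157, edgeR, adjusted p = 0.0288, groups apart), and did not pass without 2C2 (0.115), C11 (0.0813) or 11C replicate 1 (0.104). Rpl5 stood at 318, 383 and 338 RPM against 278 and 261 RPM, with -0.48 (SE 0.143, edgeR, adjusted p = 0.0410, groups apart), and did not pass without 2C2 (0.1685), C11 (0.0983), 11C replicate 1 (0.0871) or 11C replicate 2 (0.0805). Rps6 (0.14, adjusted p = 0.555), Rps19 (-0.13, 0.552) and Rpl13a (-0.29, 0.211) did not pass.

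**Figure D3:**
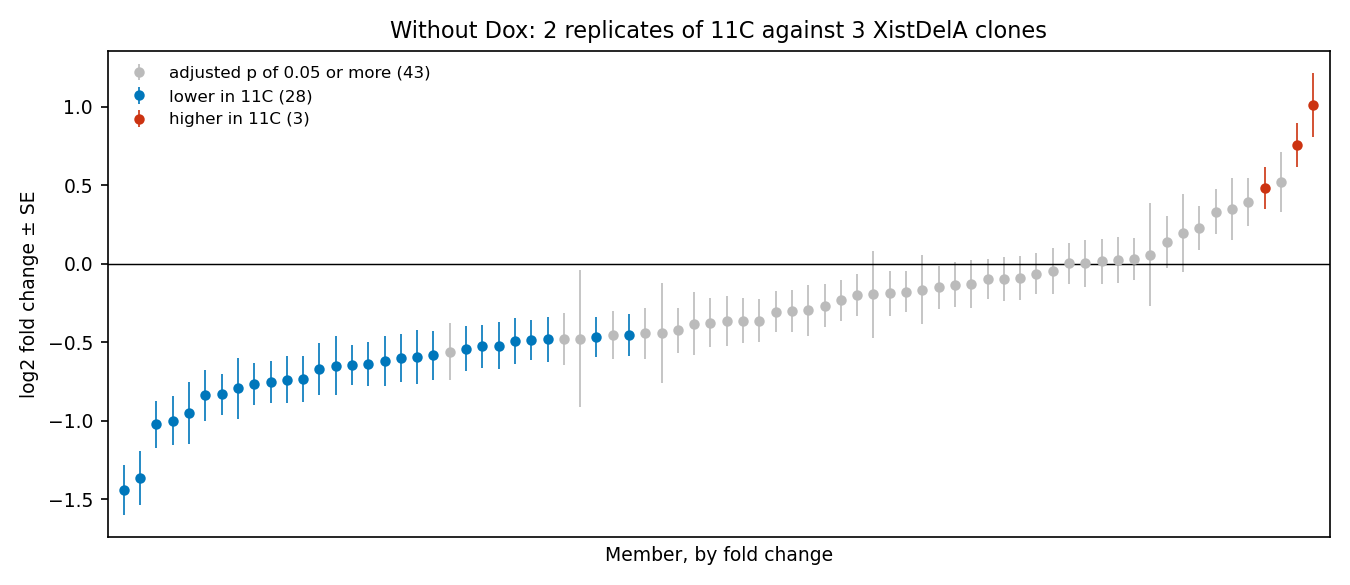
Log2 fold change of the 74 tested members (horizontal axis, 1 point each, in order of fold change) between 2 replicates of 11C and 3 XistDelA clones without Dox (vertical axis, bars are 1 SE). The 28 blue genes passed as lower in 11C and the 3 red ones as higher, from -1.44 (Rpl22l1) to 1.01 (Rpl36).

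The lines differ in more than the members, and 1 clone of 11C cannot be told apart from its genotype. Nuclear RNAs (6 of 7 listed in the files, most abundant Malat1, none at 0) summed to 11240, 10485.5 and 11375 RPM in C1, 2C2 and C11 without Dox and to 22519 and 20885 RPM in 11C. With Dox the sums were 10222, 10273 and 10323 RPM against 26853 and 21466 RPM. Rmrp, the RNA of RNase MRP, was higher in 11C without Dox, with a log2 fold change of 2.55 (SE 0.249, edgeR, adjusted p = 0.00135, groups apart). WT held 10664 RPM of these nuclear RNAs without Dox and 10188 RPM with Dox. The part of these differences in the members' result was not tested. The count of 31 was 10 without 2C2, 18 without C11 and 19 without 11C replicate 1, and 33 by DESeq2.

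Early differentiation markers (7 of 7 in the files, most abundant Gata4, none at 0) summed to 21.1, 21.5 and 23.9 RPM in the clones and to 49.5 and 34.1 RPM in 11C without Dox, and to 25.98 RPM in WT. Of these 7, 4 were higher and 1 lower in 11C. Feeder fibroblast markers (12 of 12, most abundant Col5a2, none at 0) summed to 32.8, 26.9 and 23.0 RPM in the clones, 19.02 and 14.7 RPM in 11C and 27.3 RPM in WT, and of 10 tested, 2 were higher and 3 lower in 11C. The mESC markers (10 of 10, most abundant Zfp42) summed to 2075, 2181 and 2216 RPM in the clones, 2012 and 1705 RPM in 11C and 2092 RPM in WT, and of 9 tested, 5 were lower and 1 higher in 11C. Sox2 was at 0 in all 12 libraries, so this marker does not serve the label, while the other 9 were counted. With Dox, these sums were 2083, 2369, 2249, 2452, 1639 and 2168 RPM for mESC markers in C1, 2C2, C11, 11C replicates 1 and 2 and WT. They were 22.9, 23.7, 21.5, 45.0, 28.9 and 22.0 RPM for early differentiation and 32.4, 30.7, 22.7, 18.8, 10.2 and 26.7 RPM for feeder markers. Genes of the mitochondrial genome are not in the files. Whether these markers bear on the members' levels was not tested.

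With Dox, 4 of 74 members were lower in 11C than in the clones and 0 were higher, beside 3.6% and 3.92% of all 15384 genes. The median was -0.25, with 54 of 74 below 0, against 0.05 over all genes and 0.20 over short autosomal genes. The 4 were also lower without Dox. Rpl22l1 stood at 29.7, 35.9 and 44.0 RPM in the clones and at 16.7 and 15.4 RPM in 11C, with a log2 fold change of -1.24 (SE 0.222, edgeR with BH, adjusted p = 0.0229, groups apart). Rps13 had -1.18 (SE 0.201, edgeR, adjusted p = 0.0203, groups apart), from the levels with Dox given above. Rps27l stood at 25.1, 24.9 and 24.8 RPM against 15.6 and 12.7 RPM, with -0.87 (SE 0.179, edgeR, adjusted p = 0.0311, groups apart). Rps27l did not pass without C1 either (edgeR, adjusted p = 0.0750). Rpl36, with 13.8, 18.9 and 19.1 RPM against 48.7 and 19.02 RPM, did not pass (0.87, SE 0.313, edgeR, adjusted p = 0.119). DESeq2 called 14 members, all lower. Without 2C2 and without C11 edgeR called 0, with 18 and 15 at an unadjusted p under 0.05. Without C1 it called 2, without 11C replicate 1 it called 25, and without 11C replicate 2 it called 11, of which 4 were higher.

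The 4 X-linked ribosomal protein genes all fell in the test over the 6 pairs. Their median log2 change was -0.47 in WT, -0.33, -0.30 and 0.06 in C1, 2C2 and C11, and -0.22 and -0.66 in 11C replicates 1 and 2. Over 470 X-linked genes other than Xist it was -0.53, -0.07, -0.06, -0.10, -0.55 and -0.45 in the same order. The part of Xist in the fall of these 4 genes was not tested. Rps4x fell with a log2 fold change of -0.42 (SE 0.0831, edgeR, adjusted p = 0.00302, 5 of 6 pairs), Rpl36a with -0.38 (SE 0.106, adjusted p = 0.0210, 5 of 6), Rpl10 with -0.35 (SE 0.0699, adjusted p = 0.00291, 6 of 6) and Rpl39 with -0.23 (SE 0.0673, adjusted p = 0.0248, 5 of 6). Their summed level went from 686 to 481 RPM in WT, from 632, 749.9 and 667 to 495, 599 and 676 RPM in C1, 2C2 and C11, and from 459 and 412 to 377 and 244 RPM in 11C. In 11C alone, Rps4x (-0.67, SE 0.115, edgeR, adjusted p = 0.00350, 2 of 2 pairs) and Rpl36a (-0.68, SE 0.165, edgeR, adjusted p = 0.0309, 2 of 2 pairs) fell, and in XistDelA alone Rpl10 did (-0.34, SE 0.0893, edgeR, adjusted p = 0.0227, 3 of 3 clones). The difference between the lines did not pass for Rps4x (-0.47, SE 0.148, edgeR, adjusted p = 0.180). Without Dox, Rpl10 was already lower in 11C than in the clones, with -1.61 (SE 0.157, edgeR, adjusted p = 0.00135, groups apart), as was Rpl39, with -1.06 (SE 0.149, edgeR, adjusted p = 0.00309, groups apart). Calls of X-linked genes were not followed with a library left out. Of the 6 autosomal genes outside the rule, 0 passed with Dox by edgeR over all pairs, with 0 at an unadjusted p under 0.05. Between the lines without Dox, Rplp1 of the stalk was higher in 11C, with 0.45 (SE 0.134, edgeR, adjusted p = 0.0413, groups apart).

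Lists of related genes were tested by edgeR only and not counted under DESeq2. Of 34 ribosome biogenesis genes tested, 15 fell with Dox over the 6 pairs, 13 in XistDelA and 0 in 11C (edgeR, 5 at an unadjusted p under 0.05 in 11C), and 16 were lower in 11C without Dox. Their medians were -0.16, -0.24, -0.02 and -0.51. Of 20 genes with TOP mRNAs or of translation factors, 8, 3 and 0 fell (4 at an unadjusted p under 0.05 in 11C), and 12 were lower in 11C without Dox. Of 10 abundant housekeeping genes, 7, 4 and 2 fell and 3 were lower. Of 8 lncRNAs that host snoRNAs, 1 fell over the pairs and 2 in XistDelA, 2 rose in 11C, and 7 were lower in 11C without Dox. The 77 mitochondrial ribosomal protein genes split evenly over the pairs, with 4 higher and 4 lower, and between the lines without Dox 2 were higher and 7 lower, with medians of -0.03 and -0.06. Summed levels of ribosome biogenesis genes (34 of 35 in the files, most abundant Npm1) without Dox were 9051 RPM in WT, 9378, 9161 and 9203 RPM in C1, 2C2 and C11, and 6236 and 6459 RPM in 11C.

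The change with Dox went with the counted span of the members. Over the 6 pairs, Spearman's rho between log2 fold change and span was 0.518 across 74 members and 0.189 across all 15826 genes, so the shorter members had the lower values. In XistDelA it was 0.378 and 0.238, and in 11C 0.383 and 0.0786, over the same 74 members and 15745 genes. With transcript GC content, the members went the other way from all genes in 11C, with -0.292 beside 0.258 over 14976 genes of known transcript. The same held over the 6 pairs, with -0.238 beside 0.21 over 15052 genes. In XistDelA the values were 0.0344 and 0.151, and between the lines without Dox 0.323 and 0.3, each of the same sign. These are correlations across genes of the same libraries, which share depth and base composition, and genes are not independent replicates. A snoRNA gene lies inside 26 members, of which 25 were tested. Over the 6 pairs, 10 of these 25 fell and 7 of the 49 without one, with medians of -0.18 and -0.17. Between the lines without Dox, 9 of 25 and 19 of 49 were lower in 11C.

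Read pairs assigned to a parental genome gave the 129S share for 68 members with at least 50 allelic counts in each library. Over the 62 members on chromosomes other than 11, the pooled share lay between 50.4% and 51.4% in every library. Single members depart from this. Rps15 had between 63.1% and 72.7%. Rpl13a had between 27.1% and 29.8% in the WT and XistDelA libraries, and in 11C 33.7% and 34.8% in replicate 1 and 36.2% and 40.2% in replicate 2, without and with Dox. Rps4l, which GENCODE lists as a processed pseudogene and which lies wholly inside Tmtc1 on the opposite strand, had a median of 100%.

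The 6 counted members on chromosome 11 differed from clone to clone, with and without Dox. Their pooled 129S share was 48.6% in WT without Dox (95% exact interval 47.5% to 49.6%) and 46.8% in C11 (45.7% to 47.9%). It was 62.3% in C1 (61.3% to 63.3%), 40.4% in 2C2 (39.2% to 41.5%) and 60.7% and 60.8% in 11C replicates 1 and 2 (59.3% to 62.0% and 59.3% to 62.2%). With Dox it was 47.8%, 46.5%, 63.6%, 40.6%, 61.8% and 65.7% in WT, C11, C1, 2C2 and 11C replicates 1 and 2. Rpl38, the member nearest to the end of the chromosome, had 26.5% in 2C2 without Dox (24.3% to 28.7%) beside 42.4% in WT (39.9% to 44.8%). Rpl27 had 39.7% in 2C2 (36.8% to 42.6%) beside 52.7% in WT (49.6% to 55.8%). Members on chromosome 11 gave 10.6% of member counts in C1 without Dox, 9.55% and 9.57% in 11C, and 8.40%, 8.25% and 7.72% in WT, 2C2 and C11. In RPM they summed to 865 in C1, 678 and 692 in 11C, and 713, 732 and 657 in WT, 2C2 and C11. Only C1 had the higher level, and in 11C the larger percent goes with lower sums of the other members, 6422 and 6535 RPM against 7777 RPM in WT. Of the 6 tested there, 2 fell with Dox over the pairs (Rpl23a and Rps27a) and 2 were lower in 11C without Dox (Rps27a and Rpl38). With these members left out, an alternative chosen after seeing the data, the pair medians again ran from -0.57 to 0.16.

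**Figure D4:**
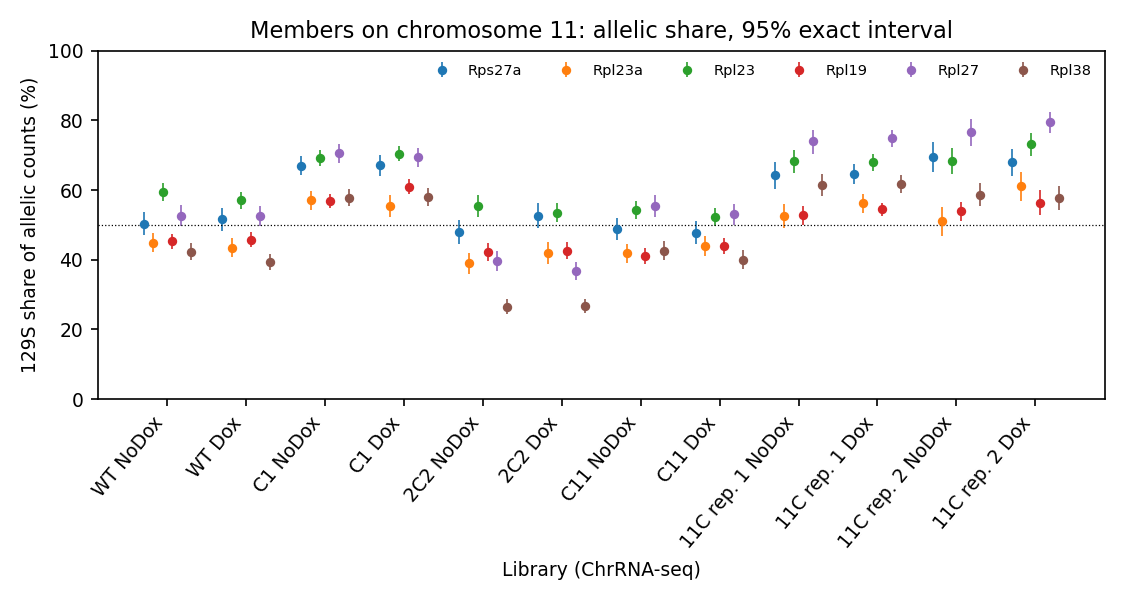
129S share of allelic counts (vertical axis, percent) of the 6 counted members on chromosome 11 in each library (horizontal axis), with 95% exact binomial intervals. Shares lie high in C1 and 11C and low in 2C2, where Rpl38 is at 26.5%, and lie close with and without Dox except in 11C replicate 2.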

How the data were processed

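The authors used featureCounts 1.5.2, by strand and over whole transcripts with introns (mm10), and deposited raw counts per gene, in all and by parental genome. The labels also name Bowtie2 2.3.2, STAR 2.4.2a, SAMtools, bedtools and edgeR without their roles. Libraries held 18893447 to 36007145 counts. Column 9 was taken as 129S, since it held 181468 Xist counts with Dox against 277. Gene tests used edgeR 4.0.16 (quasi-likelihood, TMM, filterByExpr with a minimum count of 10, BH over all genes tested, threshold 0.05) in R 4.3.3, with the clone or replicate pair as a block in the Dox tests. XistDelA and 11C shared a fit of 10 libraries. Comparisons between the lines used 5 libraries. DESeq2 1.42.0 was an alternative. Other values came from Python 3.11.15 with pandas 2.3.3 and scipy 1.17.1, with a pseudocount of 0.5 for pair changes. The tests were also run on simulated counts, but the outcome is not given here and no result rests on it. Pairs follow clone names and replicate numbers. As a check, residuals of the libraries of a pair correlated at 0.4131 to 0.7114 over 15745 genes (0.6375 in C1 and 0.5683 in C11). WT, with 1 pair, has no replicate. Intervals and floors cover counting error only, and for replicates of 1 clone p-values may measure mostly technical spread.

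Named members are up to 5 per direction and comparison with the largest change among those called and moving the same way throughout, the 5 highest by RPM and by RPM per kilobase, and set paralogues and well-known members. Any other member named was chosen after its values were seen. Members and lists were chosen with earlier results of these data known. Alternatives covered normalization, count filter, tool, block, pseudocount, scaling and leaving out each replicate. Promoters come from RefSeq (GRCm38.p6), and gene models from GENCODE M21. The promoter file at hand had no match by name for 21 members, among them Rpl3, Rpl7, Rpl8, Rpl17, Rpl21, Rpl23a, Rpl29, Rpl30, Rpl32, Rpl36, Rps4l, Rps14, Rps20, Rps27a, Rps27rt and Rps29.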

Additional observations from a re-analysis of the deposited data

How the results depend on the processing

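Among named members that passed a test, the only ones followed here, no fold change changed direction in the comparison they passed. The member median in 11C did: it was -0.15 with both replicates, -0.49 without replicate 1 and 0.08 without replicate 2. The median difference of the responses was 0.02, and -0.29 and 0.29 without these replicates. The members called with Dox over all 6 pairs (17) and in XistDelA (6) stayed within 1.5 times under DESeq2 size factors, no count filter and DESeq2, and both went to 0 with no replicate block, that is, without the pairs; the cause was not tested. In 11C the count of 0 became 1 with DESeq2 size factors, 5 with no count filter and 2 with DESeq2. Between the lines with Dox, 4 became 14 with DESeq2. Leaving out each replicate in turn gave 4 to 33 members over all pairs, 0 to 46 in XistDelA, 0 to 45 in 11C, 0 to 30 for the difference of the responses, 10 to 27 between the lines without Dox and 0 to 25 with Dox; the cause was not tested. A pair or library left alone in its line by this was assumed to vary like the others. Member medians by pair moved by less than the SD over the 6 pair medians (0.259) under all 5 alternatives. The largest move was in 11C replicate 2, from -0.57 to -0.49 with TMM. Of these alternatives, 2 (only members with no snoRNA gene inside, only members outside chromosome 11) were chosen after seeing the data. Summed levels moved by less than the SD over libraries in 12 of 12 libraries without the most abundant genes. With at least 200 allelic counts, the median 129S share over members moved to 54.2% in C1 with Dox and to 54.0% in 11C replicate 1 with Dox. It moved by less than the SD over libraries in the other 10. These medians over members are not the pooled shares given above. With at least 50 counts, the median over the 62 members outside chromosome 11 was 52.4% in C1 with Dox and 50.8% in 11C replicate 1 with Dox. Of the fold changes of named members in comparisons they passed, 212 kept their direction and side of the threshold and 82 kept the direction only. Depth limits Rpl3l, with 232 counts over all 12 libraries.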
